A study of Mus musculus with 8 samples.

Results

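Adenosine and ATP signalling was described here through 8 genes for receptors of adenosine or ATP and for enzymes of their breakdown, in mouse BV-2 cells with and without lipopolysaccharide (LPS). The 8 genes, Adora2a, Adora2b, Adora3, Entpd1, Nt5e, Ada, P2rx4 and P2rx7, were among 46078 in the count table. They were chosen because Adora2a had no counts in the untreated cells and many under LPS. The values against Control are therefore descriptions without a test for all 8 members. A filter on low counts over the 4 groups was passed by 6 of the 8 genes, Adora3 and Nt5e being the exceptions, and Adora2a passed it through the LPS-treated groups.

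Poly(A) RNA was sequenced from BV-2, an immortalized microglial line, to ask how aged garlic extract (AGE) and its component fructosyl arginine (FruArg) alter the response to LPS. There were 4 groups of 2 libraries each, stated to be biological replicates. Control cells received solvent, LPS cells 100 ng/mL LPS for 20 h, AGE+LPS cells 0.5% (v/v) AGE and FruArg+LPS cells 3 mM FruArg, each added 1 h before the same LPS. All cells came from 1 line at passage 5 to 6 and spent 4 h without serum. No library held AGE or FruArg without LPS, so neither agent could be compared with Control on its own.

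Total counts were 2707500 and 8995052 in Control, 8720784 and 12069807 in LPS, 6795464 and 6669072 in AGE+LPS, and 4692715 and 5822113 in FruArg+LPS. The labels place replicate 1 of every group on lane 3, and replicate 2 on lane 6. Levels are counts scaled to library size with factors from the trimmed mean of M values (TMM CPM). A count of 0 allowed up to 3 counts, which was 0.903 and 0.284 TMM CPM in the Control libraries and between 0.284 and 0.679 TMM CPM in the other 6. These floors covered counting error only.

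Of 14 microglia and macrophage markers, 13 had counts, and their summed level was between 4101 and 5854 TMM CPM per library. The most abundant was Adgre1, with a mean of 1639 TMM CPM over the 8 libraries. Sall1 had no counts in any library and Tmem119 had at most 6, so these markers of microglia in tissue were absent or near 0 in the line. Marker lists of astrocytes, neurons, oligodendrocytes, T cells, B cells and fibroblasts summed to at most 2.65 TMM CPM in any library. The endothelial list summed to between 40.1 and 115 TMM CPM, almost all from Vwf, and to at most 1.70 TMM CPM without it, with Cldn5 at 0. The part of Vwf in the results was not tested.

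ATP that leaves stressed or activated cells opens P2X channels and engages P2Y receptors on microglia, where it directs process movement, cytokine release and phagocytosis. Ectonucleotidases on the cell surface strip its phosphates in turn to adenosine, which acts through G protein-coupled P1 receptors and is removed by adenosine deaminase. In macrophages and microglia the receptor encoded by Adora2a raises cyclic AMP and is known for dampening inflammatory responses, while P2X7 is known for starting inflammasome assembly.

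Adora2a (ENSMUSG00000020178, chr10:75316877-75334784, plus strand, GRCm38) encodes a high-affinity adenosine receptor that couples to the stimulatory G protein. It had 0 counts in both Control libraries, 11.4 and 8.99 TMM CPM in LPS, 24.2 and 11.9 TMM CPM in AGE+LPS, and 20.6 and 19.9 TMM CPM in FruArg+LPS. Every LPS-treated library stood above both Control libraries, the lower AGE+LPS library lay just above the higher LPS library, and the FruArg+LPS pair lay inside the span of the AGE+LPS pair. The raw counts were 92 and 95 in LPS, 168 and 77 in AGE+LPS, and 91 and 106 in FruArg+LPS. The group means were 10.2 ± 1.71 (SD, n = 2), 18.0 ± 8.74 (SD, n = 2) and 20.2 ± 0.497 TMM CPM (SD, n = 2). Against the mean floor of Control, 0.594 TMM CPM, Adora2a was at least 17.2-fold higher in LPS, at least 30.4-fold higher in AGE+LPS and at least 34.1-fold higher in FruArg+LPS. In RNA from whole cultures, more cells with a transcript and more transcript per cell cannot be told apart.

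Adora2b (ENSMUSG00000018500, chr11:62248984-62266453, plus strand), the gene of the lower-affinity stimulatory adenosine receptor, had another order of groups. Its levels were 2.41 and 2.37 TMM CPM in Control, 1.12 and 0.757 in LPS, 11.2 and 4.47 in AGE+LPS, and 3.39 and 3.56 in FruArg+LPS. No 2 groups overlapped: both LPS libraries were the lowest, both AGE+LPS libraries the highest, and FruArg+LPS lay just above Control. The AGE+LPS replicates were far apart, and their mean was 7.86 ± 4.79 TMM CPM (SD, n = 2). The LPS values rested on 9 and 8 counts, those of Control on 8 and 25, those of AGE+LPS on 78 and 29, and those of FruArg+LPS on 15 and 19. Against Control, the log2 fold change of Adora2b was -1.34 (SE 0.55) in LPS, 1.72 (SE 0.52) in AGE+LPS and 0.58 (SE 0.58) in FruArg+LPS. The value in AGE+LPS fell to 0.89 when its replicate 1 was left out and rose to 2.25 when its replicate 2 was. Adora2b thus lay below Control under LPS alone and above it in both co-treated groups. Its 95% interval in FruArg+LPS against Control, -0.75 to 1.91, included 0. Adora2a, chosen for its absence in Control, could only lie above Control, so the contrast between the 2 genes is a description.

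Adora3 (ENSMUSG00000000562, chr3:105870858-105908926, plus strand), the gene of the inhibitory A3 receptor, had 0 and 18 counts in Control, 2 and 6 in LPS, 8 and 3 in AGE+LPS, and 6 and 1 in FruArg+LPS. All 4 groups overlapped, at 0 to 1.70 TMM CPM, and Adora3 did not pass the filter, so no difference was tested. Of its exon bases, 20.9% are shared on the same strand with Tmigd3, and how reads over shared bases were counted is not stated. Adora1, the remaining P1 receptor gene, had no counts in any library.

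**Figure D1:**
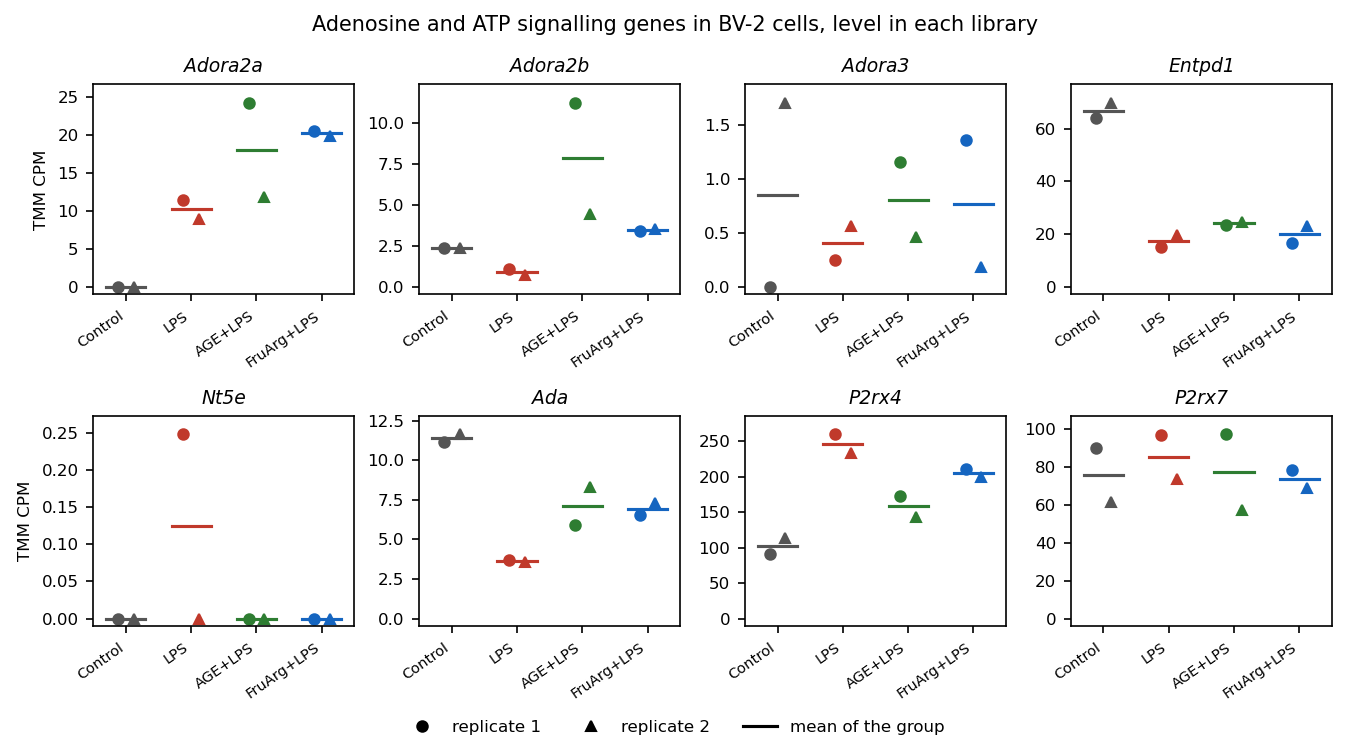
TMM CPM of the 8 adenosine and ATP signalling genes in each of the 8 libraries, with circles for replicate 1, triangles for replicate 2 and a bar for the mean of the 2 libraries of a group. Adora2a was at 0 in both Control libraries and between 8.99 and 24.2 TMM CPM in the other 6, while Entpd1 and Ada were highest in Control and P2rx4 lowest there.

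Entpd1 (ENSMUSG00000048120, chr19:40612366-40741602, plus strand) encodes CD39, which turns extracellular ATP and ADP into AMP. It was read at 63.8 and 69.7 TMM CPM in Control, 15.3 and 19.6 in LPS, 23.4 and 24.8 in AGE+LPS, and 16.7 and 23.1 in FruArg+LPS. The 2 Control libraries stood far above the other 6, AGE+LPS stood above LPS and FruArg+LPS, and the FruArg+LPS and LPS libraries overlapped. The log2 fold change against Control was -1.93 (SE 0.23) in LPS, -1.49 (SE 0.21) in AGE+LPS and -1.71 (SE 0.25) in FruArg+LPS. Nt5e (ENSMUSG00000032420, chr9:88327197-88372092, plus strand) encodes CD73, the enzyme of the next step from AMP to adenosine. It had 2 counts in LPS replicate 1 and none in the other 7 libraries, under the floor of 3 counts, so no fold is given.

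Ada (ENSMUSG00000017697, chr2:163726584-163750239, minus strand) encodes adenosine deaminase, which turns adenosine into inosine. The gene stood at 11.1 and 11.6 TMM CPM in Control, 3.72 and 3.60 in LPS, 5.91 and 8.32 in AGE+LPS, and 6.56 and 7.31 in FruArg+LPS. Control was highest and LPS lowest, with the 4 co-treated libraries between them and the AGE+LPS pair spanning the FruArg+LPS pair. Its log2 fold change against Control was -1.63 (SE 0.33) in LPS, -0.70 (SE 0.32) in AGE+LPS and -0.68 (SE 0.36) in FruArg+LPS. The counts behind these values were between 29 and 123.

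P2rx4 (ENSMUSG00000029470, chr5:122707544-122729738, plus strand) encodes the P2X4 channel, a high-affinity ATP receptor held largely in lysosomes. Its 2 Control libraries had 91.2 and 113 TMM CPM, those of LPS 259.8 and 234, those of AGE+LPS 173 and 144, and those of FruArg+LPS 211 and 199.5. No 2 groups overlapped, and the order from high to low was LPS, FruArg+LPS, AGE+LPS, Control. Relative to Control the log2 fold change of P2rx4 was 1.28 (SE 0.21) in LPS, 0.61 (SE 0.20) in AGE+LPS and 1.03 (SE 0.19) in FruArg+LPS.

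P2rx7 (ENSMUSG00000029468, chr5:122643911-122691432, plus strand) encodes the low-affinity P2X7 channel and ends 16111 bases before P2rx4 begins on the same strand. Levels of P2rx7 were 90.0 and 61.4 TMM CPM in Control, 96.8 and 73.6 in LPS, 97.2 and 57.3 in AGE+LPS, and 78.3 and 69.0 in FruArg+LPS. All 4 groups overlapped, and in each of them replicate 1 exceeded replicate 2. Its log2 fold change against Control was 0.18 (SE 0.26) in LPS, 0.02 (SE 0.30) in AGE+LPS and -0.01 (SE 0.25) in FruArg+LPS. With scaling by library size alone these became -0.24, -0.22 and -0.41, so the sign against Control in LPS and in AGE+LPS depended on the scaling. That scaling moved the median log2 fold change of all genes tested from 0.02 to -0.40 in LPS against Control, from 0.01 to -0.24 in AGE+LPS against Control and from 0.00 to -0.40 in FruArg+LPS against Control. The signs of Entpd1, Ada and P2rx4 were the same under both scalings, and P2rx4 stood at 0.86, 0.37 and 0.63 by library size.

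The ratio of P2rx4 to P2rx7 counts needs no scaling between libraries. It was 1.01 and 1.84 in Control, 2.68 and 3.18 in LPS, 1.78 and 2.51 in AGE+LPS, and 2.697 and 2.89 in FruArg+LPS. Both LPS and both FruArg+LPS libraries had a higher ratio than either Control library, while 1 AGE+LPS library lay within the Control span. Within each lane, the AGE+LPS library had a higher ratio than the Control library. Scaled by exon length as TPM, the mean level of P2rx4 was 13.5 in Control and 26.7 in LPS, beside 11.4 and 10.8 for P2rx7. Entpd1 was at a mean of 11.04 TPM in Control, of the same order as both channel genes, and at 2.39 TPM in LPS. Ada was at a mean of 5.23 TPM in Control and 1.39 in LPS. Among the P1 receptor genes on this scale, Adora2b had 1.19 TPM and Adora2a 0 in Control, whereas Adora2a had 2.53 TPM and Adora2b 0.385 in LPS. Adora2a also led in AGE+LPS, at 4.76 against 3.45 TPM, and in FruArg+LPS, at 4.39 against 1.26 TPM.

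The members were chosen with earlier results of these data known, for a reason that drew on Adora2a in Control and under LPS. Calls of Adora2a between LPS-treated groups are therefore descriptions and are not counted as support. The comparisons without Control were tested, since the reason does not set the LPS-treated groups against each other. Each asked whether an agent added before LPS altered transcript levels under LPS, and DEGs were genes with a log2 fold change of at least 1 in size and an adjusted p below 0.05 (edgeR quasi-likelihood test, Benjamini-Hochberg adjustment over all genes tested). The p-values measure the spread between these libraries, with the spread of each gene moderated by edgeR toward that of all genes. With the replicate block, the 4 libraries of a comparison left few degrees of freedom per gene. The small p-values of the block fits therefore rest largely on this pooled spread. All 3 comparisons share libraries with each other. Of the 6 members tested, 0 were DEGs in AGE+LPS against LPS by edgeR, beside 0.292% of all 12317 genes up-regulated and 0.503% down-regulated. At an unadjusted p below 0.05 there were 3 members and 2194 genes, and DESeq2 called 1 member and 528 genes. DESeq2 was fitted to every gene with at least 1 count in a comparison, so its numbers are not shares of the genes that edgeR tested. Of the 5 members other than Adora2b, which reached the CPM cutoff of the filter only in AGE+LPS, 2 had an unadjusted p below 0.05 and DESeq2 called 0. In FruArg+LPS against LPS edgeR called 0 of the 6 members and 0 percent of 12071 genes, with 2 members and 1543 genes at an unadjusted p below 0.05, and 0 members and 195 genes by DESeq2. There Adora2b reached the cutoff only in FruArg+LPS. Of the 5 other members, Adora2a alone had an unadjusted p below 0.05, and DESeq2 called 0. DESeq2 gave Adora2b and Ada no adjusted p in this comparison, so it could not call them. FruArg+LPS against AGE+LPS had 0 of 6 members and 0 percent of 11915 genes by edgeR, 0 members and 668 genes at an unadjusted p below 0.05, and 0 members and 4 genes by DESeq2. DESeq2 gave Adora2b and Ada no adjusted p here either.

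Adora2b had the largest difference among the 6 members tested in AGE+LPS against LPS. Its log2 fold change was 3.07 (SE 0.60, 95% interval 1.64 to 4.51), with 2 of 2 AGE+LPS libraries above both LPS libraries and an edgeR Benjamini-Hochberg adjusted p of 0.065, which missed the threshold. Adora2b was below the filter's cutoff in both LPS libraries and entered the test through AGE+LPS, where it was high, so its calls below are descriptions and are not counted as support. With a filter of at least 10 counts in every library it was not tested, and 0 members were called. Within lanes, the log2 CPM difference was 3.04 in lane 3 and 2.19 in lane 6. With the replicate as a block, edgeR gave a log2 fold change of 2.98 and an adjusted p of 3.0e-10 in the same 2 of 2 libraries, a DEG, and DESeq2 gave 3.08 and 0.0013. Over all alternatives the adjusted p ranged from 3.0e-10 to 0.103. Single libraries moved this value across the threshold: without LPS replicate 1 the log2 fold change was 3.38 (adjusted p 7.3e-04), without LPS replicate 2 it was 2.77 (0.0048) and without AGE+LPS replicate 2 it was 3.60 (3.8e-06), each a DEG. Without AGE+LPS replicate 1 it was 2.24 (adjusted p 0.10), not a DEG. The block fit called 4.91% of all genes up-regulated and 4.82% down-regulated in AGE+LPS against LPS, and 0 of the 5 other members.

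Adora2a was 0.82 higher on the log2 scale in AGE+LPS than in LPS (SE 0.39, 95% interval -0.11 to 1.76), with 2 of 2 libraries above both LPS libraries and an edgeR Benjamini-Hochberg adjusted p of 0.34. The difference was 1.07 in lane 3 and 0.39 in lane 6. With the replicate block it was 0.77 on the log2 scale and the edgeR adjusted p 6.6e-04 in 2 of 2 libraries, short of the fold minimum. In the pairwise fit the log2 fold change became 0.21 when AGE+LPS replicate 1 was left out and 1.26 when replicate 2 was. In FruArg+LPS against LPS the log2 fold change of Adora2a was 1.03 (SE 0.33, 95% interval 0.29 to 1.77), again with 2 of 2 libraries above both LPS libraries, and the edgeR adjusted p was 0.29. The lanes gave 0.83 and 1.12. With the replicate block the log2 fold change was 1.04 and the edgeR adjusted p 0.0080 in 2 of 2 libraries, a DEG, over a range of 0.0080 to 0.999 across alternatives. This fit called 2.87% of all genes up-regulated and 3.48% down-regulated in FruArg+LPS against LPS. Adora2a was the 1 member among them, a description given the reason for its choice. Between FruArg+LPS and AGE+LPS the log2 fold change of Adora2a was 0.19 (95% interval -0.64 to 1.03), with 1 of 2 lanes in either direction and an edgeR adjusted p of 0.93. Without AGE+LPS replicate 2 its sign changed, to -0.24.

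For Adora2b in FruArg+LPS against LPS the log2 fold change was 1.93 (SE 0.69, 95% interval 0.38 to 3.48), with 2 of 2 libraries above both LPS libraries and an edgeR Benjamini-Hochberg adjusted p of 0.32. Here too it passed the filter through 1 group only, FruArg+LPS. The block brought the adjusted p to 0.094, and it was 0.025, a DEG, with all 4 groups and the block in 1 fit, over a range of 0.025 to 0.999. Between FruArg+LPS and AGE+LPS the log2 fold change of Adora2b was -1.14 (95% interval -2.42 to 0.13), lower in 2 of 2 libraries, with an edgeR adjusted p of 0.84. It was -0.32 when replicate 1 of AGE+LPS was left out and -1.66 when replicate 2 was.

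P2rx4 was lower in AGE+LPS than in LPS by a log2 fold change of -0.64 (SE 0.21, 95% interval -1.15 to -0.14), in 2 of 2 libraries, with an edgeR Benjamini-Hochberg adjusted p of 0.18. The 2 lanes gave -0.58 and -0.70. The interval for FruArg+LPS against LPS, -0.74 to 0.29, included 0. Ada was higher by 0.95 (SE 0.36, 95% interval 0.09 to 1.82) in 2 of 2 AGE+LPS libraries, with an edgeR adjusted p of 0.24, and by 0.96 (SE 0.47) in 2 of 2 FruArg+LPS libraries, with an edgeR adjusted p of 0.42. With the replicate block the edgeR adjusted p in AGE+LPS against LPS was 2.2e-08 for P2rx4 (log2 fold change -0.65) and 0.0060 for Ada (0.96), each in 2 of 2 libraries. Both were below 0.05 and short of the fold minimum. In FruArg+LPS against LPS the block gave 0.41 for P2rx4 and 0.18 for Ada. Entpd1 and P2rx7 had log2 fold changes between -0.24 and 0.46 in the 3 comparisons, with edgeR adjusted p between 0.39 and 0.98. With the block, Entpd1 in AGE+LPS against LPS had an edgeR adjusted p of 0.016 at a log2 fold change of 0.47, higher in 2 of 2 libraries and short of the fold minimum. The 95% intervals of P2rx7 were -0.88 to 0.59 in AGE+LPS against LPS, -0.76 to 0.41 in FruArg+LPS against LPS and -0.70 to 0.62 in FruArg+LPS against AGE+LPS, and its sign in AGE+LPS against LPS changed with scaling by library size, from -0.14 to 0.01.

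**Figure D2:**
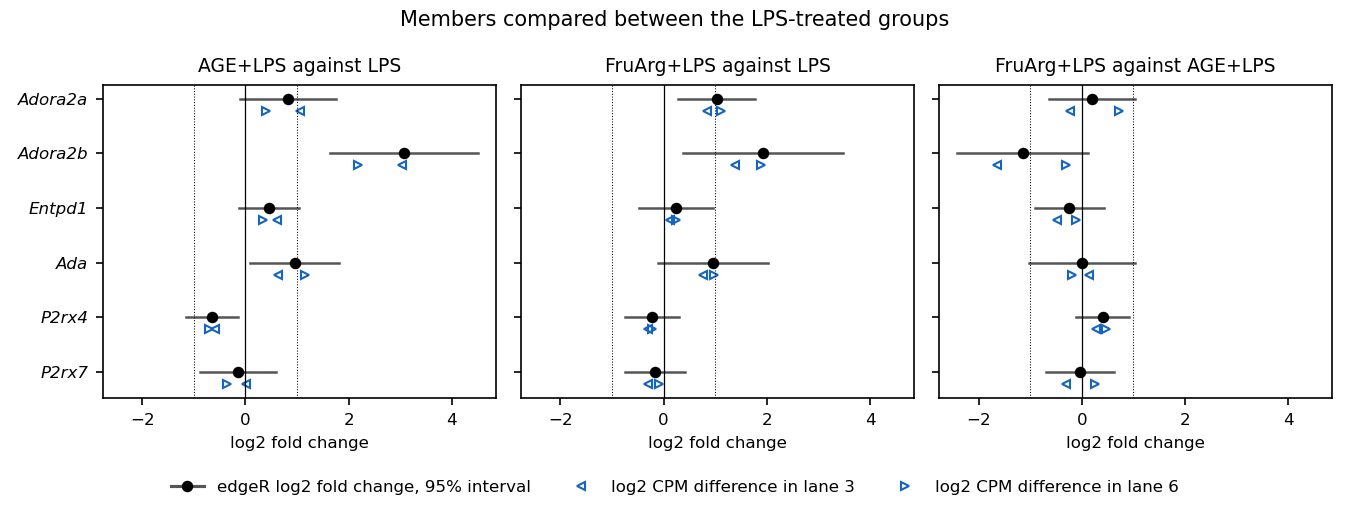
Log2 fold change of the 6 members tested in the 3 comparisons without Control, with dots and lines for the edgeR estimate and its 95% interval, open triangles for the log2 CPM difference within each lane, and dotted lines at the fold threshold. The intervals of P2rx7 included 0 in every panel, and those of Adora2b against LPS, 1.64 to 4.51 in AGE+LPS and 0.38 to 3.48 in FruArg+LPS, are descriptions, since it passed the filter there only through the co-treated group. Those of Adora2a are descriptions too, since its LPS-treated values entered the reason for choosing the members.

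Beside the members, 86 other purinergic genes were listed by role, 85 were found in the table, and those that passed the filter of a comparison, between 53 and 59, were tested in it. In LPS against Control, edgeR called 15 of 59 tested list genes up-regulated and 14 down-regulated, beside 11.5% and 11.1% of all 12888 genes. The list's median log2 fold change was -0.09 and that of all genes 0.02. In AGE+LPS against Control 11 of 56 were up-regulated and 9 down-regulated, beside 7.64% and 7.41% of all genes, and the medians were 0.03 and 0.01. FruArg+LPS against Control had 11 of 55 up-regulated and 8 down-regulated, beside 9.59% and 7.84%, with medians of 0.15 and 0.00. Scaling by library size gave 13 up-regulated and 20 down-regulated list genes in LPS against Control, 9 and 10 in AGE+LPS against Control, and 9 and 11 in FruArg+LPS against Control. Under it the list's medians were -0.51, -0.23 and -0.25, beside -0.40, -0.24 and -0.40 for all genes. The share of all genes called under that scaling is not given. Of the genes tested, 6 in LPS, 4 in AGE+LPS and 5 in FruArg+LPS against Control reached the cutoff of the filter in 1 group only, and 5, 3 and 4 of these were DEGs. The list was chosen with results of these data known, so its shares describe it and nothing is read from them.

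P2Y receptors, which couple nucleotides to G proteins, gave 4 down-regulated genes and 1 up-regulated gene of 6 tested in LPS against Control, beside 11.1% and 11.5% of all genes. P2ry6 and P2ry13 entered this test through Control alone, as did P2ry12 in AGE+LPS and in FruArg+LPS and P2ry13 in FruArg+LPS, so the count is not read as support. P2ry12 encodes the ADP receptor that guides microglial processes to ATP sources. It had 6.02 and 9.37 TMM CPM in Control, 1.61 and 1.70 in LPS, 0.721 and 1.08 in AGE+LPS, and 0.226 and 0.938 in FruArg+LPS. Control stood apart from the other 6 libraries, and both co-treated groups lay below LPS. The log2 fold change of P2ry12 in LPS against Control was -2.23 (edgeR adjusted p 0.0038), lower in 2 of 2 libraries, and P2ry12 was not a DEG there without Control replicate 2 (-1.89, adjusted p 0.053). Its values of -3.13 in AGE+LPS and -3.61 in FruArg+LPS are descriptions, given how it entered those comparisons. The value in FruArg+LPS, from 1 and 5 counts there, ranged from -4.99 to -3.01 with a library left out.

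P2ry13, the gene of another ADP receptor, on the same chromosome as P2ry12, had 9.03 and 16.1 TMM CPM in Control and between 0.868 and 1.54 in the other 6 libraries. In AGE+LPS against Control P2ry13 was down-regulated by -3.26 on the log2 scale (SE 0.44, edgeR adjusted p 0.0011) in 2 of 2 libraries. In LPS and FruArg+LPS, where it passed the filter through Control alone, the log2 fold changes of -3.71 (SE 0.44) and -3.20 (SE 0.51) are descriptions. P2ry1, a further ADP receptor gene, had 53.9 and 69.4 TMM CPM in Control and between 7.01 and 12.2 in the other 6 libraries, so Control stood apart here too. It was down-regulated by -2.85 (SE 0.25, edgeR adjusted p 6.2e-05) in LPS, -2.57 (SE 0.25, 2.3e-04) in AGE+LPS and -2.98 (SE 0.27, 2.8e-04) in FruArg+LPS, in 2 of 2 libraries each. Of the exon bases of P2ry1, 23.1% are shared on the opposite strand with Gm37035, and the strandedness of the counting is not stated.

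P2ry6, the gene of a UDP receptor tied to phagocytosis in microglia, had 8.73 and 7.19 TMM CPM in Control, 0.620 and 0.757 in LPS, 1.73 and 1.85 in AGE+LPS, and 2.04 and 0.750 in FruArg+LPS. LPS and AGE+LPS did not overlap, and FruArg+LPS spanned from the LPS values to above AGE+LPS. Its log2 fold change against Control was -2.14 (SE 0.42, edgeR adjusted p 0.0070) in AGE+LPS and -2.49 (SE 0.62, 0.023) in FruArg+LPS, lower in 2 of 2 libraries each, and in LPS, where it entered through Control alone, -3.47 (SE 0.48) as a description. The value in FruArg+LPS was not a DEG without Control replicate 1 (-2.34) or replicate 2 (-2.68). It ranged from -3.30 to -1.90 with a library left out. P2ry2, the gene of a receptor for ATP and UTP, went the other way, from 6.02 and 7.85 TMM CPM in Control to 30.0 and 24.4 in LPS, 31.4 and 26.0 in AGE+LPS, and 47.0 and 33.4 in FruArg+LPS. P2ry2 was up-regulated by 1.95 (SE 0.29, edgeR adjusted p 9.5e-04), 2.00 (SE 0.27, 0.0012) and 2.53 (SE 0.30, 9.3e-04), in 2 of 2 libraries each.

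P2ry14, the gene of a UDP-sugar receptor, had 0.903 and 2.65 TMM CPM in Control, 2.61 and 4.07 in LPS, 0.433 and 0.308 in AGE+LPS, and 0 and 0.938 in FruArg+LPS. Both LPS libraries stood above all 4 co-treated libraries, from 21 and 43 counts in LPS against at most 5. It was not a DEG in LPS against Control, at 0.76 (edgeR adjusted p 0.33, higher in 2 of 2 lanes), and this value ranged from 0.37 to 1.83 with a library left out. In AGE+LPS against LPS its log2 fold change was -3.12 (SE 0.60, 95% interval -4.54 to -1.70) in 2 of 2 libraries, with an edgeR adjusted p of 0.063. It passed the filter here, and in FruArg+LPS against LPS, only through LPS, where it was high, so the calls that follow are descriptions. With the replicate block it was -3.10 and a DEG (adjusted p 9.4e-06), over a range of 9.4e-06 to 0.13, and without LPS replicate 1 it was -3.37 and a DEG (0.015). It was also a DEG with a filter of at least 1 count (-3.13, adjusted p 2.8e-04) and by DESeq2 with a prior on fold changes (-1.34, 0.047). Against LPS, FruArg+LPS gave -2.66 (SE 0.99) in 2 of 2 libraries, with an edgeR adjusted p of 0.34. There the block gave -2.83 (adjusted p 0.029, a DEG), over a range of 0.0043 to 1.00, and leaving out FruArg+LPS replicate 2 gave a DEG (0.0043) with the remaining FruArg+LPS library at 0 counts. The P2Y genes tested between LPS-treated groups gave 0 DEGs by edgeR with the pairwise fits and filter reported, with 2 of 5 at an unadjusted p below 0.05 in AGE+LPS against LPS, 1 of 4 in FruArg+LPS against LPS and 0 of 3 between the co-treated groups, beside 2194 of 12317, 1543 of 12071 and 668 of 11915 of all genes, and 0 in each by DESeq2 without a prior. The P2Y counts against LPS are descriptions. P2ry12 and P2ry14 stood below the filter's cutoff in both libraries of the co-treated group. P2ry6, tested in AGE+LPS against LPS, stood below it in both LPS libraries. P2ry4 and P2ry10 did not pass the filter over 4 groups, nor did the 5 other P2X genes, whose counts were at most 13.

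**Figure D3:**
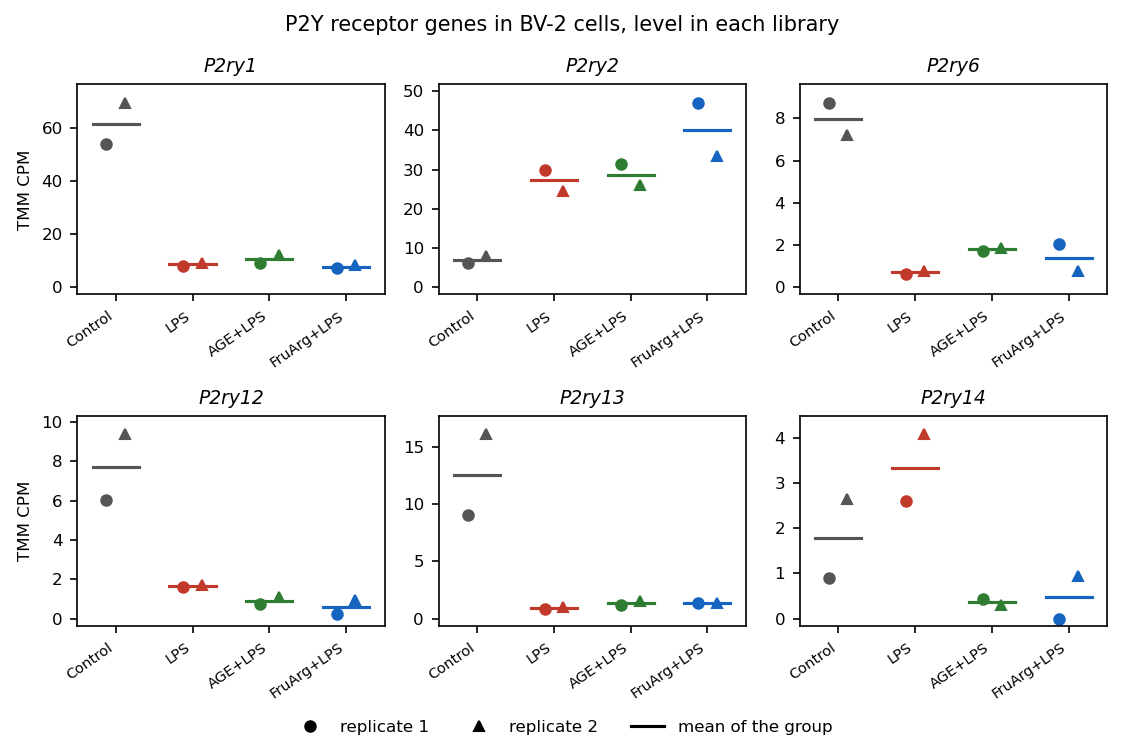
TMM CPM of the 6 P2Y receptor genes that passed the filter over 4 groups, in each of the 8 libraries, with circles for replicate 1, triangles for replicate 2 and a bar for the mean of the 2 libraries of a group. P2ry1, P2ry6, P2ry12 and P2ry13 were highest in both Control libraries, P2ry2 lowest there, and P2ry14 had its highest mean in LPS.

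The largest increases among list genes with a mean of at least 5 TMM CPM were those of Il1b, Slc28a2 and Pde4b in all 3 comparisons with Control. Il1b, the cytokine gene whose product is released after inflammasome activation, had 1.51 and 2.46 TMM CPM in Control, 567 and 593 in LPS, 1758 and 1619 in AGE+LPS, and 1037 and 1780.0 in FruArg+LPS. The groups with AGE or FruArg stood above LPS in every library. Its log2 fold change was 8.08 (SE 0.31, edgeR adjusted p 2.1e-06) in LPS, 9.59 (SE 0.33, 1.9e-06) in AGE+LPS and 9.38 (SE 0.43, 2.4e-05) in FruArg+LPS against Control, in 2 of 2 libraries each. Slc28a2, the gene of a concentrative transporter that carries purine nucleosides such as adenosine into cells, had 0.602 and 0.378 TMM CPM in Control, 27.2 and 26.5 in LPS, 11.7 and 9.86 in AGE+LPS, and 19.9 and 12.2 in FruArg+LPS. All 4 co-treated libraries lay below both LPS libraries and above both Control libraries. Its log2 fold changes against Control, 5.91 (SE 0.41), 4.56 (SE 0.50) and 5.16 (SE 0.58), are descriptions, because Slc28a2 had only 2 and 4 counts in Control and passed the filter through the LPS-treated group each time.

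Pde4b encodes a phosphodiesterase that breaks down cyclic AMP, the messenger raised by the products of Adora2a and Adora2b. It stood at 3.31 and 4.07 TMM CPM in Control and between 46.7 and 55.7 in the 6 LPS-treated libraries, with log2 fold changes of 3.80 (SE 0.27, edgeR adjusted p 2.4e-05), 3.74 (SE 0.27, 4.5e-05) and 3.78 (SE 0.28, 1.3e-04) in 2 of 2 libraries each. Among decreases, Ank, the gene of a multipass protein tied to ATP release, was down-regulated by -2.40 (SE 0.24, edgeR adjusted p 1.2e-04) in LPS and -2.14 (SE 0.23, 3.3e-04) in AGE+LPS against Control, lower in 2 of 2 libraries each. Fos, a CREB-responsive gene, was the 1 non-receptor gene among the leading decreases in FruArg+LPS against Control, at -1.95 (SE 0.43, edgeR adjusted p 0.014) in 2 of 2 libraries. Fos was not a DEG there without Control replicate 2 (-1.77, adjusted p 0.23) or with 4 groups in 1 fit (-1.98, 0.087, over a range of 4.1e-04 to 0.23).

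Between LPS-treated groups the list gave 1 DEG by edgeR, Il1b in AGE+LPS against LPS, of 56 genes tested. The log2 fold change of Il1b there was 1.54 (SE 0.21, 95% interval 1.03 to 2.04), higher in 2 of 2 libraries, with an adjusted p of 0.041. By DESeq2, which took in 71 list genes, there were 7 list DEGs. With the replicate block there were 10, 4 up-regulated and 6 down-regulated, while 17 had an unadjusted p below 0.05 by edgeR. Without the 4 genes that passed the filter through 1 group only, these counts were 7, 8 and 14. Beside them stood 528 of all genes by DESeq2, 4.91% up-regulated and 4.82% down-regulated with the block, and 2194 at that p. The count became 9 without LPS replicate 1, 3 without LPS replicate 2 and 7 without AGE+LPS replicate 2. In FruArg+LPS against LPS edgeR called 0 of 54 list genes, with 13 at an unadjusted p below 0.05. DESeq2 called 4 of 70 and the block fit 11, 6 up-regulated and 5 down-regulated. Without the 2 genes that passed the filter through 1 group only, the last 3 counts were 12, 4 and 10. Beside them stood 1543 of all 12071 genes at that p, 195 by DESeq2, and 2.87% up-regulated and 3.48% down-regulated with the block. The edgeR count of list genes became 3 without LPS replicate 1, 1 without FruArg+LPS replicate 1 and 11 without FruArg+LPS replicate 2. FruArg+LPS against AGE+LPS gave 0 of 53 list genes by edgeR. An edgeR unadjusted p below 0.05 was reached by 4, DESeq2 called 0 of 69 and the block fit 0. Beside these stood 668, 4 and 0.898% of all genes. Without the 1 gene that passed the filter through 1 group only, 3 had an unadjusted p below 0.05.

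The genes in this paragraph were chosen after their values were seen. Adcy7 encodes an adenylate cyclase, the enzyme between stimulatory G protein receptors and cyclic AMP. It had 265 and 224 TMM CPM in Control, 86.1 and 71.6 in LPS, 207 and 163 in AGE+LPS, and 212 and 138 in FruArg+LPS. Both LPS libraries were the lowest of the 8, and the co-treated libraries lay between LPS and Control. Adcy7 was down-regulated in LPS against Control (-1.63, SE 0.22, edgeR adjusted p 6.2e-04, 2 of 2 libraries). Against LPS it was higher by 1.23 in AGE+LPS (SE 0.23, edgeR adjusted p 0.061) and by 1.19 in FruArg+LPS (SE 0.28, 0.21), in 2 of 2 libraries each. With the replicate block both were DEGs (adjusted p 1.0e-19 and 7.1e-07), over ranges of 1.0e-19 to 0.10 and 7.1e-07 to 0.65. It became a DEG in AGE+LPS against LPS without LPS replicate 1 (1.40, adjusted p 0.015) or AGE+LPS replicate 2 (1.40, 0.0059), and in FruArg+LPS against LPS without FruArg+LPS replicate 2 (1.46, 0.0023). Other libraries left out took it down to 1.04 in AGE+LPS and 0.85 in FruArg+LPS against LPS.

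Chosen in the same way, Panx1 encodes the pannexin channel through which cells release ATP. Its levels were 55.1 and 76.3 TMM CPM in Control, 212 and 198 in LPS, 102 and 114 in AGE+LPS, and 171 and 157 in FruArg+LPS. The 4 groups did not overlap and had the same order as those of P2rx4. Panx1 was up-regulated in LPS against Control (1.64, SE 0.22, edgeR adjusted p 5.3e-04, 2 of 2 libraries), and in AGE+LPS against LPS its log2 fold change was -0.93 (SE 0.20, edgeR adjusted p 0.076, 2 of 2 libraries), short of the fold threshold. Casp1, the gene of the inflammasome protease, had 102 and 223 TMM CPM in Control, 440.2 and 885 in LPS, 151 and 336 in AGE+LPS, and 151 and 328 in FruArg+LPS, with replicate 2 more than 2-fold above replicate 1 in every group. Within each lane, both co-treated libraries lay below the LPS library, by -1.54 and -1.40 in AGE+LPS and by -1.54 and -1.43 in FruArg+LPS on the log2 CPM scale. The edgeR adjusted p of Casp1 was 0.16 and 0.27 without the block and 2.2e-25 and 9.3e-09 with it, for block log2 fold changes of -1.47 and -1.44 in 2 of 2 lanes each, and ranged over alternatives from 2.2e-25 to 0.23 and from 9.3e-09 to 0.78. It became a DEG in AGE+LPS against LPS without LPS replicate 1 (-1.84, adjusted p 4.2e-04) or AGE+LPS replicate 2 (-2.12, 8.7e-05), and in FruArg+LPS against LPS without LPS replicate 1 (-1.83, 0.015) or FruArg+LPS replicate 2 (-2.09, 6.7e-05). With LPS replicate 2 left out instead, the log2 fold change of Casp1 was -0.89 and -0.86, under the fold minimum, and it was also under 1 in size when replicate 1 of the co-treated group was left out.

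Slc29a3, the gene of an equilibrative nucleoside transporter of lysosomes, was also picked by its values, with 33.4 and 24.3 TMM CPM in Control, 29.4 and 26.9 in LPS, 13.3 and 12.02 in AGE+LPS, and 10.6 and 15.6 in FruArg+LPS. The 4 co-treated libraries lay below all Control and LPS libraries. Against LPS the log2 fold change of Slc29a3 was -1.16 (SE 0.24, edgeR adjusted p 0.075) in AGE+LPS and -1.06 (SE 0.32, 0.27) in FruArg+LPS, lower in 2 of 2 libraries each. With the block the adjusted p was 1.1e-08 and 0.0033, both DEGs, over ranges of 1.1e-08 to 0.16 and 0.0033 to 0.89. It was also a DEG in AGE+LPS against LPS without LPS replicate 2 (-1.25, adjusted p 0.034) and in FruArg+LPS against LPS without FruArg+LPS replicate 2 (-1.37, 0.034), while other libraries left out brought it to -1.06 and -0.81. The concentrative transporter Slc28a2 was at -1.32 in AGE+LPS against LPS (SE 0.25, edgeR adjusted p 0.063), lower in 2 of 2 libraries, and was a DEG with the block (-1.32, adjusted p 4.8e-10, over a range of 4.8e-10 to 0.11). Leaving out LPS replicate 1 (-1.27, adjusted p 0.037) or LPS replicate 2 (-1.36, 0.017) also made it a DEG. Il1b in FruArg+LPS against LPS was at 1.32 (SE 0.30, edgeR adjusted p 0.21, 2 of 2 libraries), and was a DEG with the block (1.27, adjusted p 2.4e-06, over a range of 2.4e-06 to 0.24) and without FruArg+LPS replicate 1 (1.66, 0.0053). Leaving out FruArg+LPS replicate 2 brought it to 0.87, under the fold minimum.

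The 5 genes whose levels most resembled those of Adora2a over the 8 libraries, by Pearson r of log2(TMM CPM + 1) among 10009 genes, were Icam1 (r = 0.996), Prkcsh (0.995), Nlrp3 (0.995), Cd14 (0.994) and Maff (0.993). Each was lowest in both Control libraries. Icam1 had 42.5 and 43.7 TMM CPM in Control and 294 and 230.2 in LPS, 415 and 288 in AGE+LPS, and 360 and 319 in FruArg+LPS. Nlrp3, also on the list as the inflammasome sensor, had 12.6 and 11.6 TMM CPM in Control, 79.4 and 65.3 in LPS, 118 and 97.5 in AGE+LPS, and 129 and 134 in FruArg+LPS. For Adora2b, among 10010 genes, they were Rps6ka2 (r = 0.969), Gm4366 (0.958), Acot7 (0.958), Zfp746 (0.957) and Abcd4 (0.956). Abcd4, for example, had 38.5 and 30.2 TMM CPM in Control, 31.1 and 21.4 in LPS, 87.2 and 53.5 in AGE+LPS, and 51.3 and 40.3 in FruArg+LPS, so that AGE+LPS replicate 1 was the highest library, as for Adora2b. These r are descriptions over 8 libraries that share lanes and groups. Those for Adora2a rest largely on its step from Control to the LPS-treated groups, which was the reason for choosing the members. With 1 library left out, 2 to 3 of the genes named for Adora2a stayed among the 5 most like it, and 0 to 4 of those for Adora2b, with 0 left when AGE+LPS replicate 1 or FruArg+LPS replicate 1 was left out.

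RefSeq promoters (GRCm38.p6), spanning 250 bases before to 50 after a transcript start, were found for 7 of the 8 members, 9 promoters in all. Adora2a had no entry. The 9 were searched on both strands for 5 motifs: kB-like GGGNTTTCC or GGANTTTCC, CRE TGACGTCA, AP-1 TGANTCA, ISRE-like GAAANNGAA and HRE ACGTG. Over all 32851 promoters, 2.89%, 1.79%, 7.81%, 8.56% and 19.6% held these letters in that order. The member promoters held 2 AP-1 matches, TGACTCA at 98 to 92 bases before a RefSeq start of Adora3 that lies inside its annotated span, and TGAGTCA at 249 to 243 bases before the first start of P2rx7, and no match to the other 4 motifs. The stretches before the gene start are printed 5′ to 3′ for 4 members that the results turn on, all on the plus strand, with the AP-1 match in capitals: Adora2b and Entpd1, lower under LPS than in Control, P2rx4, higher under LPS, and its neighbour P2rx7, whose groups overlapped. They are chr11:62248734-62248983, chr19:40612116-40612365, chr5:122707294-122707543 and chr5:122643677-122643910, the last of 234 bases because the annotated gene begins before the RefSeq start.
Adora2b: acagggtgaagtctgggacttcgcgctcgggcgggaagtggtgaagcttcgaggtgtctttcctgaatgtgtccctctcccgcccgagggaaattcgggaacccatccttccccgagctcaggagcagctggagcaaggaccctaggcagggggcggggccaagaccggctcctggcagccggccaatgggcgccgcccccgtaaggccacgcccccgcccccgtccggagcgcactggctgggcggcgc
Entpd1: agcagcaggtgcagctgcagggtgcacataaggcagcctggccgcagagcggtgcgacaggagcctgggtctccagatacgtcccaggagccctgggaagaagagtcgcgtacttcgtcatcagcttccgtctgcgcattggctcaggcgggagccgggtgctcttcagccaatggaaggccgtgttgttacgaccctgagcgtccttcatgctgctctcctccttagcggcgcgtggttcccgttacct
P2rx4: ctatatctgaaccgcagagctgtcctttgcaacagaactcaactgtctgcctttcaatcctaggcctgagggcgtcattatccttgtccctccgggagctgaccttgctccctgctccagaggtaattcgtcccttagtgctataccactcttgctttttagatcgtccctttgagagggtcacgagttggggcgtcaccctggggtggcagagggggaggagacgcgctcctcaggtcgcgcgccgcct
P2rx7: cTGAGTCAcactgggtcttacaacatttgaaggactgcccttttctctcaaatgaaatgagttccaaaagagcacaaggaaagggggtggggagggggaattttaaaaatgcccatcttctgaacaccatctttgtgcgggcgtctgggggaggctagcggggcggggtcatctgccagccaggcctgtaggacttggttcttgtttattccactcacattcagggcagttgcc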

How the data were processed

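The deposited table gives, per the labels, raw counts of reads per Ensembl gene, which the authors made from poly(A) RNA libraries of 100 nt reads with featureCounts on GRCm38 (version not given). For their own analysis the labels name edgeR and the methods of the paper DESeq2. Raw counts for 8 libraries were read in R 4.3.3, and genes were named and placed by GENCODE M21. Pairs of groups were compared with edgeR 4.0.16, using the 4 libraries concerned (filterByExpr, TMM, glmQLFit and glmQLFTest), with p adjusted by Benjamini-Hochberg over all genes tested. TPM used the union of exon lengths, and log2 CPM differences within lanes used a prior count of 2. Tested alternatives were no fold minimum, DESeq2 1.42.0 without and with a prior on fold changes, RLE size factors, library size scaling, filters of at least 1 count in 1 library or 10 in every library, 4 groups in 1 fit, the replicate as a block without and with 4 groups, leaving out each library, a prior count of 0.125, and a pseudocount of 0.25 for likeness.

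Lanes came from the labels. In log2 CPM, replicate differences correlated between groups at r of 0.245 to 0.631 over 12874 genes, and replicate 1 against replicate 2 differed by a chi-square per degree of freedom of 11.9 to 41.3. The members and lists were chosen with earlier results of these data known. Named by rule were the 8 members, in each comparison up to 3 list DEGs per direction with the largest log2 fold change and a mean of at least 5 TMM CPM, the P1, P2X and P2Y genes that passed the filter over 4 groups, and the 5 genes most like Adora2a and Adora2b. Pnp, the remaining listed gene, could not be matched in the table. Figures were drawn with matplotlib 3.10.9.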

Additional observations from a re-analysis of the deposited data

How the results depend on the processing

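Alternatives changed 1 choice of the pairwise edgeR fits, except that 4 groups with the block changed 2 and DESeq2 brought its own test, scaling and filter. Leaving out a library left 1 group with a lone library assumed to vary like the other. The counts of list DEGs against Control stayed within 1.5 times the reported count under every alternative, at 24 to 33, 16 to 21 and 15 to 25 with a library left out in LPS, AGE+LPS and FruArg+LPS, and FruArg+LPS against AGE+LPS gave 0 list genes and 0 members throughout. In AGE+LPS against LPS the list count of 1 became 7 by DESeq2, without or with a prior, 10 with a filter of at least 1 count, 3 with 4 groups in 1 fit, 10 with the replicate block and 10 with both, and 1 to 9 with a library left out. The member count of 0 there became 1 under the same 6 alternatives, and 0 to 1 with a library left out. For FruArg+LPS against LPS the list count of 0 became 4 by DESeq2, without or with a prior, 8 with a filter of at least 1 count, 11 with the block and 11 with 4 groups and the block, and 0 to 11 with a library left out. Its member count of 0 became 1 with the block, Adora2a, and 2 with 4 groups and the block, Adora2a and Adora2b. Adora2b, also the 1 member called in AGE+LPS against LPS, passed the pairwise filters against LPS through the co-treated group alone. Its calls are therefore descriptions, as are those of Adora2a given the reason for its choice. In FruArg+LPS against LPS and against AGE+LPS, DESeq2 without a prior gave Adora2b and Ada no adjusted p and could not call them. The list counts against LPS include genes that passed through 1 group only. For all genes, numbers called are given only for the reported fits, the pairwise block and DESeq2 without a prior. Under the other alternatives, here and above, the list and member counts describe dependence on the processing only. The block also made Fos a DEG in LPS against Control (-1.88, adjusted p 2.3e-04). Signs of small log2 fold changes reversed for P2rx7 in AGE+LPS against LPS (0.011 by library size, -0.58 to 0.20 with a library left out), for Ada in FruArg+LPS against AGE+LPS (0.0044 with RLE, 0.0064 with 4 groups, 0.0075 with the block, 0.010 with both) and for P2rx7 there (0.0066 with the block, 0.014 with 4 groups and the block). Library size scaling moved the median of all genes in AGE+LPS against LPS from -5.2e-04 to 0.15. The block also turned P2rx7 against Control to -0.015 in AGE+LPS and 0.017 in FruArg+LPS. With a library left out, ranges of P2rx7 against Control crossed 0, at -0.12 to 0.51 in LPS, -0.41 to 0.37 in AGE+LPS and -0.32 to 0.30 in FruArg+LPS. Between LPS-treated groups the others that crossed 0 were -0.094 to 0.26 for P2ry2 in AGE+LPS against LPS, -0.022 to 0.45 for Entpd1, -0.38 to 0.051 for P2rx7 and -0.24 to 0.0031 for P2ry1 in FruArg+LPS against LPS, and -0.24 to 0.80 for Adora2a, -0.22 to 0.25 for Ada, -0.38 to 0.40 for P2rx7 and -1.19 to 0.22 for P2ry6 in FruArg+LPS against AGE+LPS. The cause was not tested. Of the 5 genes most like Adora2a, 3 stayed among the 5 with a pseudocount of 0.25 and 3 with library size scaling, and of those most like Adora2b, 4 and 2 stayed. With the smaller prior count, 14 log2 CPM differences of members moved by more than the replicate spread and 34 did not. Adora3 and Nt5e had at most 18 and 2 counts in a library, and whether depth limited them was not tested.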

Other observations

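Cd38, chosen after its values were seen, encodes an ectoenzyme that consumes NAD and feeds another route to extracellular adenosine. It had 8.73 and 6.53 TMM CPM in Control, 26.4 and 34.9 in LPS, 38.1 and 44.5 in AGE+LPS, and 37.5 and 30.6 in FruArg+LPS. Control stood below all 6 LPS-treated libraries, AGE+LPS stood above LPS, and FruArg+LPS overlapped LPS. Cd38 was up-regulated by 2.05 on the log2 scale (SE 0.30, edgeR adjusted p 8.6e-04) in LPS, 2.47 (SE 0.27, 3.9e-04) in AGE+LPS and 2.22 (SE 0.30, 0.0017) in FruArg+LPS against Control, higher in 2 of 2 libraries each.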
